A study of Homo sapiens with 2 samples.

Results

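The U4/U6.U5 tri-snRNP is the largest preformed building block of the spliceosome, and its protein genes were followed here through an immunoprecipitation of ZMAT2 in HUH7 cells, a human hepatocellular carcinoma line. The set holds 10 genes, taken by symbol from the 56303 genes of the deposited count table: 5 encode U5 snRNP proteins (PRPF8, SNRNP200, EFTUD2, PRPF6 and DDX23), 3 encode U4/U6 proteins (PRPF3, PRPF4 and PRPF31) and 2 encode tri-snRNP-specific proteins (SART1 and USP39). All 10 symbols were found, and all 10 had far more than the minimum of 20 reads in both libraries together. The data comprised 1 library of RNA precipitated from 80% of an HUH7 lysate with an antibody to ZMAT2 (ZMAT2 IP), and 1 library of RNA from a 10% share of lysate set aside before the precipitation (Input). Neither label names a treatment or genotype, and a rabbit IgG precipitate described in the protocol was not analysed here, so each ratio compares the precipitate with the lysate and not with a control precipitate. The study asked whether ZMAT2 acts on hepatocellular carcinoma through mRNA splicing.

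In the tri-snRNP, the U4 and U6 snRNAs are base-paired with each other and held beside U5 snRNP, which aligns the exons in the catalytic centre. The particle joins the pre-spliceosome as the B complex forms, after which U4 is unwound from U6 and leaves with its proteins. ZMAT2, the human counterpart of yeast Snu23, is a B complex protein and sits close to the tri-snRNP there. The counts described below are reads of the mRNAs that encode these proteins, not of the proteins themselves or of the snRNAs.

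Reads in genes numbered 25047635 for the ZMAT2 IP, against 23485789 for Input. With 1 library in each group there was no replicate check, so no p-value is given, and every interval is a 95% interval that covers counting error only. Unless pairs are named, an interval treats each read as independent, and it is too narrow if both mates of a pair were counted. Ratios are IP over Input after TMM scaling, which centres them on the bulk of genes (median log2 ratio 0.0059 over the 17915 genes kept). With library totals in place of TMM that median changed by -0.106, so each ratio is relative to the other genes and is no absolute recovery. Hepatocyte markers fitted the labelled cell type, with 338025 reads for 8 of 8 genes in the ZMAT2 IP and 473562 reads for 8 of 8 in Input. The 11 markers of immune, stellate and endothelial cells had between 0 and 252 reads each in the IP and between 0 and 341 in Input, and CD3E, COL1A1, KDR and CDH5 were at 0 in both.

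The mRNAs of the 5 U5 proteins stood well above the bulk of genes in the ZMAT2 IP, 4 of them by close to the same amount and PRPF6 by more. Those of the U4/U6 proteins stood slightly above it, and the 2 tri-snRNP-specific genes differed from each other, with SART1 near the top of the set and USP39 at the bottom. The median log2 ratio was 0.91 for the 5 U5 genes (1.88-fold), 0.27 for the 3 U4/U6 genes (1.20-fold) and 0.61 for SART1 and USP39. The median of all 10 was 0.87, against -0.03 for the 6587 protein-coding genes with 1000 reads or more. The 10 genes together had 71137 reads in the IP against 40277 in Input, or 0.284% and 0.171% of the reads in genes.

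**Figure D1:**
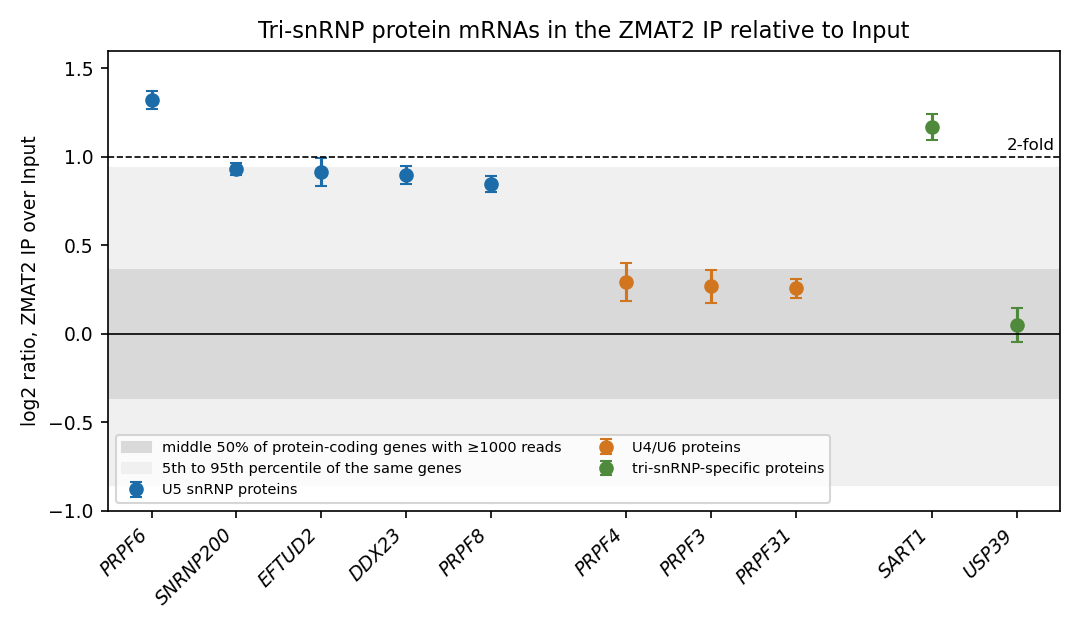
Log2 ratio of ZMAT2 IP over Input for each of the 10 genes, grouped by the particle of the encoded protein. Bars are 95% counting intervals from 1 library per group, grey bands show the middle 50% and the 5th to 95th percentile of protein-coding genes with at least 1000 reads, and the dashed line marks 2-fold. The 5 U5 genes lie between 0.85 and 1.32, the 3 U4/U6 genes between 0.26 and 0.29.

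A gene was called higher or lower when its ratio reached 2-fold and its interval excluded 0 on the log2 scale. By this rule 2 of the 10 genes, PRPF6 and SART1, were higher and none was lower. Of all genes kept, 7.41% were called higher and 6.96% lower, and these shares were 3.96% and 2.61% of the deep protein-coding genes (at least 1000 reads), a depth that all 10 genes reach. At 1.5-fold, 6 of the 10 genes were higher and none lower, against 17.8% of all genes higher and 16.0% lower. Of the deep protein-coding genes, 15.1% were higher and 13.6% lower at 1.5-fold. The interval lay above 0 for 9 of the 10 genes and included 0 for USP39, against an interval above 0 for 33.3% of all genes and 41.3% of the deep protein-coding genes. With library totals in place of TMM the higher share of all 2-fold calls was 39.6%, against 51.6% with TMM.

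PRPF8 encodes the largest spliceosomal protein, the scaffold that cradles the U5 snRNA loop, the splice sites and the branch point at the catalytic centre. It lies at 1650629 to 1684882 on the minus strand of chromosome 17 (GRCh38, as are all coordinates here). It had 11738 reads in the ZMAT2 IP against 6583 in Input (486 against 270.2 CPM), which gave a log2 ratio of 0.85 (0.80 to 0.89). This was the lowest ratio among the U5 genes, and 6.74% of the deep protein-coding genes had a higher one.

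SNRNP200 encodes the helicase, Brr2 in yeast, that unwinds U4 from U6 and is regulated by a domain of PRPF8. Its gene lies at 96274336 to 96305515 on the minus strand of chromosome 2. It had the most reads of the 10 genes, with 19709 in the ZMAT2 IP against 10432 in Input, or 816 and 428 CPM. Its fold of 1.91 (1.86 to 1.95) stopped short of 2-fold with an interval that did not reach it.

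EFTUD2 encodes a GTPase, Snu114 in yeast, that resembles a ribosomal translocase, binds PRPF8 and helps control SNRNP200. The gene lies at 44849943 to 44899662 on the minus strand of chromosome 17. EFTUD2 had 3700 reads in the ZMAT2 IP against 1983 in Input, for a log2 ratio of 0.91 (0.83 to 0.99). On pairs of reads the interval of EFTUD2 was 0.80 to 1.03, which includes 2-fold. Of its merged exon bases, 5.19% lie in exons of other genes on the opposite strand. The overlapping gene CCDC103 had 260 reads in the IP against 162 in Input.

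PRPF6 encodes the long repeat protein that bridges U5 snRNP to U4/U6 in the tri-snRNP, and it stood highest of the 10 genes. It lies at 63981135 to 64033100 on the plus strand of chromosome 20 and shares no exon bases with another gene. PRPF6 had 10324 reads in the ZMAT2 IP against 4169 in Input (428 against 171 CPM). Its log2 ratio was 1.32 (1.27 to 1.37), and 94 of the 6587 deep protein-coding genes (1.43%) had a higher ratio.

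DDX23 encodes the DEAD-box helicase called Prp28 in yeast, a U5 protein that displaces U1 snRNP from the 5′ splice site when the tri-snRNP docks. It lies at 48829764 to 48852842 on the minus strand of chromosome 12. DDX23 had 9308 reads in the ZMAT2 IP against 5046 in Input, a fold of 1.86 (1.80 to 1.93), close to that of SNRNP200 and EFTUD2.

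The ratio of 2 genes' ratios does not depend on how the libraries are scaled, so the genes were compared with each other in this way. Within U5 there were 10 comparisons. PRPF6 was above each of the other 4 U5 genes, by 1.31-fold over SNRNP200 (log2 0.39, 0.33 to 0.45) up to 1.39-fold over PRPF8 (log2 0.47, 0.41 to 0.54). Of the 6 comparisons among SNRNP200, EFTUD2, DDX23 and PRPF8, 5 had an interval that included 0. The exception was SNRNP200 over PRPF8, at 1.06-fold (log2 0.08, 0.03 to 0.14).

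The promoters of PRPF6 and SNRNP200 are shown because these are the U5 genes with the highest ratio and with the most reads, and because their windows are the only ones of the members that lie wholly outside the deposited gene. The windows are the 120 bases before the RefSeq start (GRCh38.p14), at chr20:63981012-63981131 on the plus strand for PRPF6 and chr2:96305547-96305666 on the minus strand for SNRNP200, written 5′ to 3′. Capitals mark the letters CCGGAAG or their reverse complement CTTCCGG, the core that ETS family factors are known to bind, searched on both strands.
PRPF6: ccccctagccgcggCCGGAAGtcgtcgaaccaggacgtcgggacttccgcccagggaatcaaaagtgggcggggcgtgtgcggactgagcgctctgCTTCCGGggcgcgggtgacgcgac
SNRNP200: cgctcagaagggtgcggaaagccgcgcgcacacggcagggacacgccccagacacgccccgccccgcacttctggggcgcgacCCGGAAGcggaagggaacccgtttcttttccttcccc
The first capitals begin at position -106 and the second at -24 in PRPF6, and those of SNRNP200 at -37, counted from the start. RefSeq promoters were matched for 9 of the 10 genes (PRPF3 was not among them), and 4 held these letters in at least 1 such window: PRPF6, SNRNP200, SART1 and USP39. Of all 35116 promoter windows 6.13% held them, and of the deep protein-coding genes 17.0%. The motif was chosen after the ratios were seen. The 942 deep genes with the letters had a median log2 ratio of -0.01 and the 4598 without a median of -0.03. Read counts over exons do not measure promoter activity.

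PRPF3 and PRPF4 encode proteins that bind each other and clamp the U4/U6 duplex. PRPF3 lies at 150321476 to 150353195 on the plus strand of chromosome 1. It had 2098 reads in the ZMAT2 IP against 1758 in Input, for a log2 ratio of 0.27 (0.18 to 0.36). PRPF4 lies at 113275343 to 113292905 on the plus strand of chromosome 9. It had 1521 reads in the IP against 1254 in Input, the fewest of the 10 genes, and a log2 ratio of 0.29 (0.18 to 0.40). Of the exon bases of PRPF4, 5.76% lie in exons of CDC26 on the opposite strand, which had 1483 reads in the IP against 1450 in Input.

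PRPF31 encodes the protein that recognises the U4 snRNA together with SNU13 and is needed for U4/U6 to join U5. It lies at 54115410 to 54131719 on the plus strand of chromosome 19. PRPF31 had 5990 reads in the ZMAT2 IP against 5054 in Input (248 against 207 CPM), with a log2 ratio of 0.26 (0.20 to 0.31). Its count is the least certain of the set, because 31.99% of its exon bases lie in exons of 2 genes on the opposite strand and reads may have been counted for each. These genes, AC012314.8 and TFPT, had 1593 and 245 reads in the IP, against 1279 and 124 in Input.

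The 3 U4/U6 genes spanned 0.03 on the log2 scale, and all 3 comparisons among them had intervals that included 0. PRPF3, which shares no exon bases with another gene, lay between the others. The interval of PRPF4 over PRPF3 (log2 0.02, -0.12 to 0.17) still allowed a difference of up to 0.17. Between 29.6% and 31.6% of the deep protein-coding genes stood above these genes.

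Among the 10 members, the U5 and U4/U6 groups did not overlap. This holds for these members only, as the U5 genes SNRNP40 and TXNL4A, outside the set, had log2 ratios of 0.28 and 0.17. At 1.5-fold all 5 U5 members and none of the 3 U4/U6 members were higher, against 15.1% of the deep protein-coding genes. Because the groups did not overlap, each of the 15 comparisons of a U5 with a U4/U6 member had to favour the U5 gene. These comparisons reuse the same genes. They ran from 1.47-fold (PRPF8 over PRPF4) to 2.09-fold (PRPF6 over PRPF31), with intervals that excluded 0. With reads pooled, the 5 U5 genes had 54779 reads in the ZMAT2 IP against 28213 in Input, and the 3 U4/U6 genes 9609 and 8066. The pooled ratio of U5 over U4/U6 was 1.63-fold (1.58 to 1.68), or log2 0.70 (0.66 to 0.75). It was 1.63-fold (1.52 to 1.74) against PRPF3 alone, which shares no exon bases with another gene. Counting pairs of reads in place of reads widened the pooled log2 interval to 0.64 to 0.77. These intervals hold for these 2 libraries, and the spread between repeated precipitations was not measured.

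SART1 encodes the counterpart of yeast Snu66, a protein that holds the tri-snRNP together and is needed to recruit it to the pre-spliceosome. It lies at 65961689 to 65979828 on the plus strand of chromosome 11 and shares no exon bases with another gene. SART1 had 4905 reads in the ZMAT2 IP against 2199 in Input (203 against 90.3 CPM), a fold of 2.25 (2.14 to 2.37). It was second to PRPF6, with a log2 difference of 0.15 (0.06 to 0.24), and above each of the other 8 genes.

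USP39 encodes the counterpart of yeast Sad1, a relative of the ubiquitin-specific proteases that has no protease activity and keeps the tri-snRNP stable. It lies at 85602856 to 85649282 on the plus strand of chromosome 2. USP39 had nearly the same level in both libraries, with 1844 reads in the ZMAT2 IP against 1799 in Input, or 76.4 and 73.8 CPM. Its log2 ratio of 0.05 (-0.05 to 0.14) was the lowest of the set, and 44.8% of the deep protein-coding genes stood higher. SART1 over USP39 was 2.18-fold (2.003 to 2.364), or log2 1.12. Counted on pairs of reads, this log2 interval was 0.95 to 1.29, which includes 2-fold. USP39 was below each of the 3 U4/U6 genes with intervals that excluded 0. Of its exon bases 7.14% lie in exons of C2orf68 and TMEM150A on the opposite strand, which had 476 and 119 reads in the IP, against 558 and 81 in Input.

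**Figure D2:**
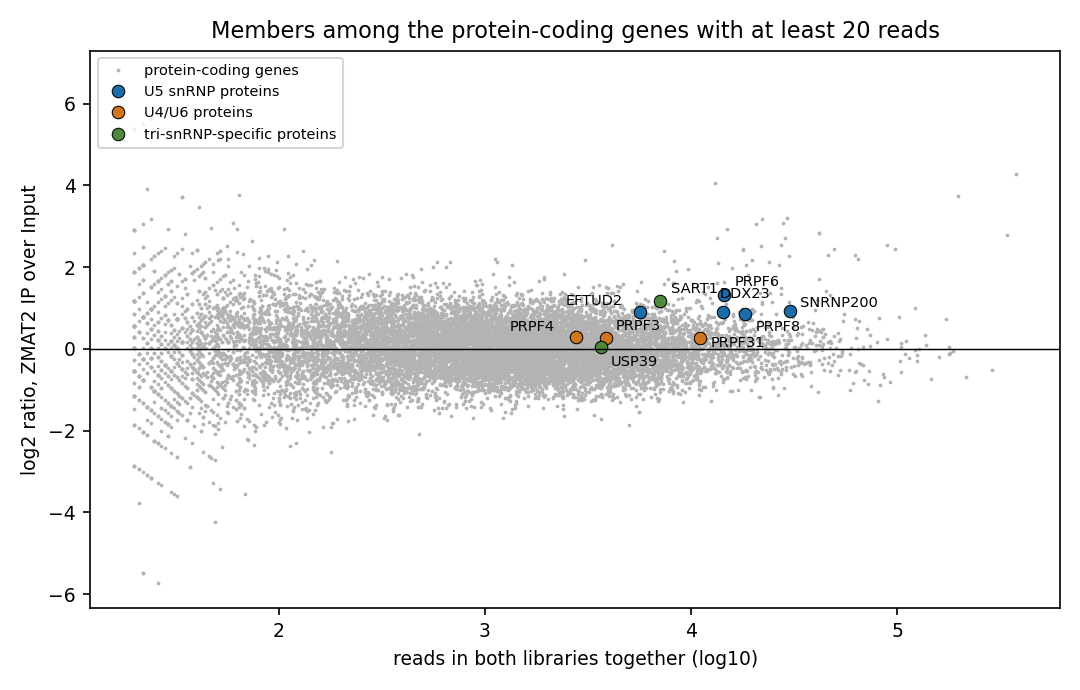
Log2 ratio of ZMAT2 IP over Input (vertical axis) against the reads of both libraries together (horizontal axis, log10) for protein-coding genes with 20 or more reads (grey) and the 10 tri-snRNP genes (coloured by particle). The grey points spread most at few reads, and all 10 genes lie well to the right of that part, with the 5 U5 genes and SART1 on its upper side.

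Levels were compared between genes per kilobase of merged exon, which understates a gene with many annotated isoforms. PRPF6 was highest in the ZMAT2 IP at 140.4 CPM per kb, followed by PRPF31 at 92.8, SNRNP200 at 74.7, DDX23 at 71.1, SART1 at 47.0 and PRPF8 at 42.8 CPM per kb. USP39, PRPF4, PRPF3 and EFTUD2 lay between 14.8 and 19.3 CPM per kb in the IP. In Input PRPF31 came first at 77.6 CPM per kb and PRPF6 second at 56.2, so the order of these 2 genes turned between the libraries. The level of PRPF31 may include reads of other genes, since 31.99% of its exon bases lie in exons on the opposite strand. SNRNP200 at 39.2 and DDX23 at 38.2 CPM per kb in Input had overlapping counting intervals, as did PRPF4 and PRPF3 in each library. In the IP PRPF4 stood at 17.4 (16.6 to 18.3) and PRPF3 at 16.2 (15.5 to 16.9). Overlap of intervals does not show equal levels, and these differences were not tested. The order of PRPF8 and SART1 turned too: SART1 stood at 47.0 in the IP and 20.9 in Input, PRPF8 at 42.8 in the IP and 23.8 in Input. Otherwise the order held, with a Spearman rho of 0.98 and a Pearson r of 0.93 on the log2 scale across the 10 genes, which share both libraries. EFTUD2 was lowest in both, at 14.8 CPM per kb in the IP and 7.85 in Input, but its merged exon length of 10375 bases pools many isoforms.

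**Figure D3:**
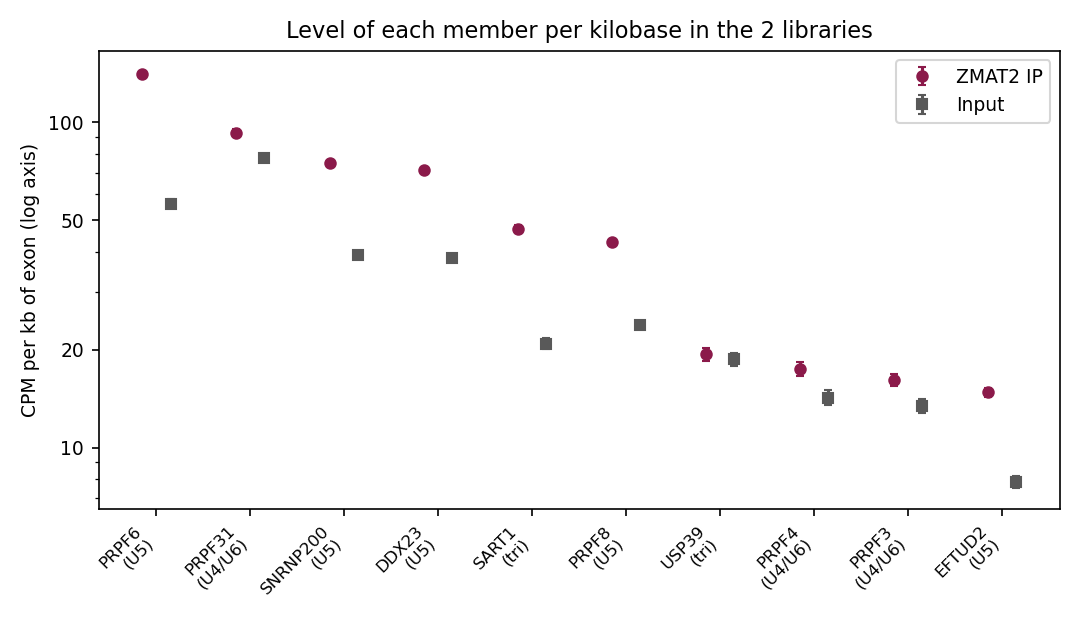
Level of each of the 10 genes in CPM per kb of merged exon (log axis) in the ZMAT2 IP (circles) and Input (squares), ordered by the IP, with the particle in brackets (tri stands for tri-snRNP-specific). Bars are 95% counting intervals of 1 library each. The gap between the symbols is wide for the U5 genes and SART1 and small for PRPF31, PRPF4, PRPF3 and USP39.

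Gene structure differed between the groups as well. The 5 U5 genes have between 17 exon blocks (DDX23) and 42 (SNRNP200), the 3 U4/U6 genes between 13 and 16, and SART1 and USP39 have 19 each. Across the 10 genes the Spearman rho of the ratio was 0.55 for the number of exon blocks, 0.22 for exon length and 0.27 for the span of the gene. Across the deep protein-coding genes these were 0.10, -0.05 and -0.18. Of those genes, 14.3% with 10 to 19 exon blocks were 1.5-fold higher, 20.7% with 20 to 39, and 32.2% of the 233 with 40 or more. The part of exon number in the difference between U5 and U4/U6 was not tested.

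Further proteins of the tri-snRNP, or of the snRNPs it is built from, were described from lists of related genes, whose counts stand against 17.8% of all genes higher and 16.0% lower at 1.5-fold. Of 7 such proteins, 1 was 1.5-fold higher, which is close to that share, and none 2-fold. Their median log2 ratio was 0.20, with 5 of 7 above the median of all genes and 2 with intervals below 0. These 2 were SNRNP27, which shares 10.4% of its exon bases, at -0.51 (-0.60 to -0.43) and SNU13 at -0.14 (-0.29 to -0.001). On pairs of reads the interval of SNU13 reached 0.06. The higher gene was CD2BP2, whose protein binds U5 snRNP and is not part of the formed tri-snRNP, with 1950 reads in the ZMAT2 IP against 993 in Input. Its log2 ratio was 0.99 (0.88 to 1.10). SNRNP40, the WD40 protein of U5, had the most reads, 2809 in the IP against 2337 in Input, at 0.28 (0.20 to 0.36). Sorted by particle after the values were seen, 6 of 8 U5 genes, 0 of 5 U4/U6 genes and 1 of 4 tri-snRNP-specific genes were 1.5-fold higher, where the members are included and 17.8% of all genes were higher. The U5 genes that were not, SNRNP40 and TXNL4A, had log2 ratios of 0.28 and 0.17, at the level of the U4/U6 genes.

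Sm and LSm proteins form the rings around the snRNAs. None of these 14 genes was higher at 1.5-fold and 1 was lower, against 17.8% and 16.0% of all genes, with a median log2 ratio of -0.10. SNRPD1, which also had the most reads of this list, had 13464 in the ZMAT2 IP against 20828 in Input, with a log2 ratio of -0.62 (-0.65 to -0.59). Several genes of this family have near-identical pseudogenes, between which reads may be split.

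Assembly factors of U5 and the tri-snRNP had 4 of 12 genes 1.5-fold higher, 1 of them 2-fold, and 1 lower, with a median log2 ratio of 0.37. Of all genes 17.8% were higher at 1.5-fold, 7.41% at 2-fold and 16.0% lower at 1.5-fold. The gene past 2-fold was TSSC4, which encodes a chaperone of U5 and tri-snRNP assembly, with 390 reads in the ZMAT2 IP against 170 in Input. Its log2 ratio was 1.21 (0.95 to 1.48). RUVBL2, an ATPase of the R2TP chaperone system, was at 0.70 (0.63 to 0.77), AAR2, which holds PRPF8 during U5 assembly, at 0.66 (0.40 to 0.92), and NCDN, which shares 7.04% of its exon bases, at 0.72 (0.445 to 1.001). COIL, which encodes the Cajal body scaffold coilin, had 576 reads in the ZMAT2 IP against 971 in Input, for a log2 ratio of -0.74 (-0.89 to -0.59). SART3, which reanneals U4 with U6 and had the most reads of this list, stood at 0.35 (0.30 to 0.40).

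Of 8 B complex genes, ZMAT2 was 2-fold higher and WBP4 1.5-fold lower, or 1 in each direction, against 7.41% of all genes higher at 2-fold and 16.0% lower at 1.5-fold. ZMAT2 had 36553 reads in the ZMAT2 IP against 5187 in Input, for a log2 ratio of 2.83 (2.79 to 2.87), and WBP4 had 264 and 514, a ratio of -0.95 (-1.17 to -0.73). These genes share 8.39% and 6.37% of their exon bases with others. The other 6 genes lay within 1.5-fold, and the median without ZMAT2 was -0.15. TRIM28, the gene in the study's title, had 4800 reads in the ZMAT2 IP against 2215 in Input, for a log2 ratio of 1.13 (1.06 to 1.20), between those of SART1 and SNRNP200.

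**Figure D4:**
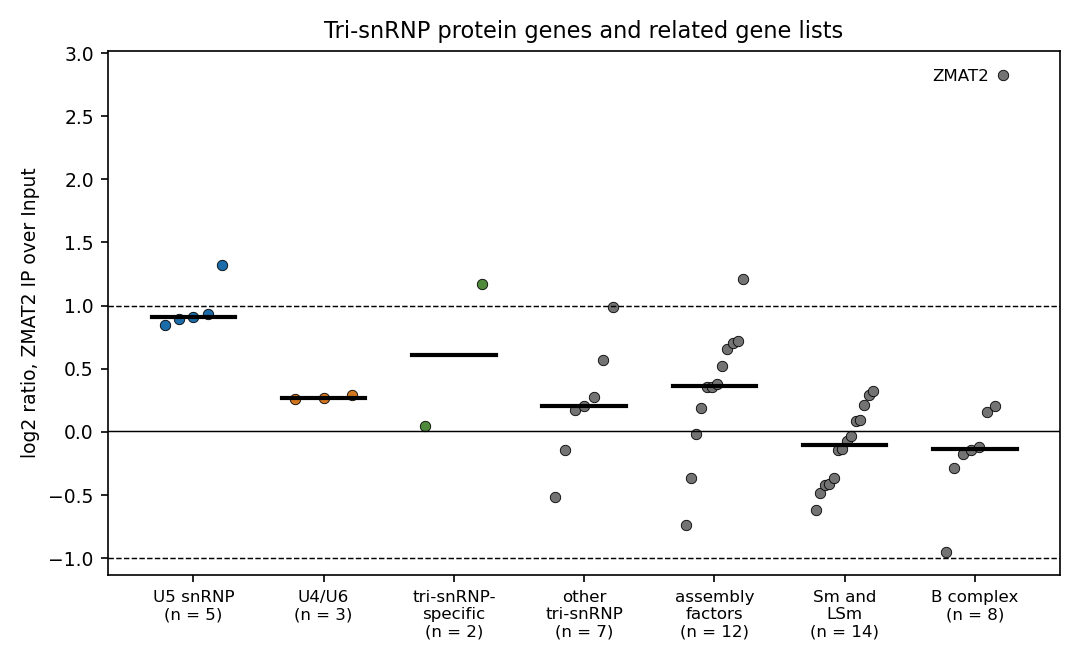
Log2 ratio of ZMAT2 IP over Input for each gene (points) of the 3 groups of tri-snRNP genes (coloured) and of 4 related lists (grey). Thick bars are list medians, the thin line is the median of all genes kept and dashed lines mark 2-fold in each direction. The U5 median is the highest of the 7 shown, the Sm and LSm and B complex medians lie below the line, and ZMAT2 stands apart at 2.83.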

How the data were processed

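Read counts per gene were deposited as whole numbers without normalization, beside each gene's exon positions and summed exon length, per the file headers. As tools, the submitters' processing notes list fastp 0.23.4, STAR 2.5.3a and edgeR 3.12.1, with genome build GRCh38. Which program counted the reads, and on which annotation, is not given in the sources used here. Count columns were matched to samples by title. Genes needed a total of 20 reads to be kept, and counts were scaled by TMM (edgeR 4.0.16, R 4.3.3). The log2 ratio used a prior count of 0.5, and its 95% interval came from the exact binomial (Clopper-Pearson) interval of a gene's share of IP reads. Ratios of ratios have conditional odds-ratio intervals (SciPy 1.17.1). Reads carry no molecular identifiers, so intervals cover counting error only. Both mates of a pair may have been counted, since even numbers made up 77.9% of counts from 1 to 6 in the IP and 67.1% in Input. Exon overlap was computed on either strand. Biotypes and promoters came from RefSeq GRCh38.p14. A quasi-likelihood test in edgeR needs replicates and was not run. Named are all members, ZMAT2, TRIM28, and from each related list the genes past 1.5-fold and the gene with the most reads, while others named for comparison were chosen after their values were seen. Members and lists were chosen with earlier results of these data known. Alternatives were other scalings (DESeq2 1.42.0 size factors, library totals), filters, prior counts and intervals on pairs of reads. One cell type marker is not reported here.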

Additional observations from a re-analysis of the deposited data

How the results depend on the processing

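Over 7 alternative settings, each of the 10 genes kept its side of 0 except USP39, whose ratio ranged from -0.06 to 0.06. Scalings and filters shift all members alike and intervals on pairs leave the ratios unchanged, so these could not bring U5 and U4/U6 genes together. With library totals the lowest U5 member stood at 0.74 and the highest U4/U6 member at 0.19. A prior count of 5 gave 0.85 and 0.29. Library totals gave medians of 0.77 for all members, 0.81 for U5, 0.16 for U4/U6 and 0.50 for the tri-snRNP-specific genes. With TMM, the median of the members was 0.91, against 0.87 for all, without those that share at least 5% of exon bases. These are EFTUD2, PRPF4, PRPF31 and USP39. The last 3 of them had low ratios, so that median describes a set of different make-up. At 1.5-fold, 6 of the 10 members were higher, against 17.8% of all genes (3196) higher and 16.0% (2868) lower. At 2-fold these shares of all genes were 7.41% (1328) and 6.96% (1247). The 2-fold counts were 761 higher and 582 lower at a minimum of 100 reads, 2004 and 2013 with no filter, and 261 and 172 among protein-coding genes with at least 1000 reads, since each filter changes how many genes were counted. The last setting, and leaving out PRPF31, were added after the data were seen. The number of members called higher at 2-fold was 2 of 10 under each of the 7 settings. Of the 17915 genes kept, 1023 were called higher with library totals and 1302 with DESeq2 size factors. A prior count of 5 gave 1177, and intervals on pairs of reads 1135. Without mitochondrially encoded genes it was 1307 of those left. No paired analysis was possible because each group held 1 library, and for the same reason no replicate could be left out.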

Other observations

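The ratios of the members that are NTPases spanned 0.0345 on the log2 scale. These are the helicases SNRNP200 and DDX23 and the GTPase EFTUD2. Their median log2 ratio was 0.91 and all 3 were past 1.5-fold, against 17.8% of all genes. The other 7 members had a median of 0.29 and 3 past 1.5-fold. All 3 NTPases are U5 genes, and the U5 genes PRPF8 (0.85) and PRPF6 (1.32), which are not NTPases, were past 1.5-fold too. The contrast therefore cannot be told apart from that of U5 with the other members. Dominant mutations in 6 of the 10 genes (PRPF8, SNRNP200, PRPF6, PRPF3, PRPF4 and PRPF31) are known causes of retinitis pigmentosa, a loss of photoreceptors. These 6 had a median log2 ratio of 0.57 with 3 past 1.5-fold, against 0.90 with 3 past 1.5-fold for the other 4. Their ratios ran from 0.26 to 1.32, with the U5 genes at the top and the U4/U6 genes at the bottom.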
